A study of Mus musculus with 5 samples.

Results

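Complex I, NADH:ubiquinone oxidoreductase, is the entry point of electrons from NADH into the respiratory chain of mitochondria. A matrix arm takes electrons from NADH and passes them over flavin and iron-sulfur clusters to ubiquinone, and a membrane arm pumps protons. The complex holds core subunits that carry out catalysis, accessory subunits that surround them, and a small set of subunits encoded by mitochondrial DNA, and dedicated assembly factors build it without remaining in it. The genes described here are the rows of the deposited count table whose Entrez identifier carries a mouse symbol beginning with Nduf, with pseudogenes left out. There were 48 such genes of 27179 in the table: 40 named as subunits (Ndufa, Ndufb, Ndufc, Ndufs and Ndufv) and 8 named as assembly factors (Ndufaf). All 48 had enough counts to be tested. Another 3 rows with an Nduf symbol (Ndufs5-ps, Ndufs6b and Ndufa11b) are pseudogenes and were left out, and Ndufb1 was not analysed here.

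RNA was sequenced from ear skin of B6 mice in 2 groups. The control group (3 libraries) is titled Cd1d +/- and tagged WT, and the KO group (2 libraries) is titled Cd1d -/- and tagged Cd1d KO. Cd1d presents lipids to natural killer T cells, and the series compared the skin transcriptome with and without it. No age, sex or treatment is given in the sources used here, nor whether each library came from a separate animal, so p-values measure the spread between these 5 libraries, which may be technical. Total counts lay between 32353957 and 79160005 per library. Cd1d1, the mouse gene for CD1d, had 6.61, 9.87 and 5.52 CPM in the controls and 1.19 and 1.12 CPM in KO, and the groups did not overlap (log2 fold change -2.67, SE 0.29, edgeR adjusted p = 0.0152). That call was lost without control replicate 1 (adjusted p = 0.0935) and without KO replicate 1 (adjusted p = 0.336). All 6 keratinocyte and 5 dermal fibroblast markers were expressed, with summed levels of 33954 to 43475 CPM in the controls and 47981 and 50517 CPM in KO for keratinocytes and 25203 to 32736 CPM in the controls and 26051 and 26378 CPM in KO for fibroblasts. In the keratinocyte sum, Lor went from a mean of 11717 CPM in the controls to 20558 CPM in KO. Krt10 went from 13007 to 13548 CPM and Krt1 from 1192 to 1175 CPM. The median log2 fold change of the 6 was 0.16. CPM, the unit of level used throughout, is a read count scaled to the size of its library after TMM normalization. In whole tissue, more cells of a type and more RNA per cell cannot be told apart.

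Part of the complex I subunit genes rose in KO skin, and the number depended on whether transcript length was taken into account. Of 40 subunit genes, 17 rose, 0 fell and 23 did not pass (edgeR quasi-likelihood test, Benjamini-Hochberg adjusted p under 0.05 over 17472 genes). Of all genes tested, 2.71% were called higher (474) and 1.05% lower (183). Scaled by library totals alone, 268 genes were higher (1.53%) and 974 lower, and 11 subunit genes passed as higher. The median log2 fold change of the subunit genes was 0.46 (range -0.10 to 1.03), against -0.018 for all tested genes. With offsets that remove each library's trend on transcript length and GC content, described with the length results, 5 passed as higher (1.92% of all genes) and the median was 0.14, and with offsets for length alone 0 passed (0% of all genes). At an unadjusted p under 0.05, without offsets, 34 of the 40 passed, as did 21.9% of all genes. In 37 of the 40 both KO libraries lay above all 3 controls, which was so for 19.9% of all tested genes, and in 0 did both lie below, against 20% of all tested genes. Median deviations from the control mean over the 40 genes, in log2(CPM + 1), were 0.50 and 0.44 in KO replicates 1 and 2 and 0.015, 0.063 and -0.062 in control replicates 1, 2 and 3, so the median of both KO libraries lay above that of every control. Of the 8 assembly factor genes, 1 rose, 0 fell and 7 did not pass, with a median log2 fold change of 0.31 (range -0.092 to 0.78). Both KO libraries lay above the controls for 5 of the 8. Whether subunits and assembly factors differ from each other was not tested.

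The call counts rested on single libraries, for all genes as for these. With control replicate 1 left out 0 subunit genes passed (edgeR), as did 0% of all genes. At an unadjusted p under 0.05, 32 subunit genes were higher in that fit, against 13.2% of all genes in either direction. With KO replicate 1 left out 0 subunit genes passed, where 0.00554% of all genes were higher (1 gene). That fit rested on 1 KO library, and the subunit median in it was 0.44. With KO replicate 2 left out 2 passed, where 0.667% of all genes were higher. Without control replicate 2 and, in turn, control replicate 3, 28 subunit genes passed, and the share of all genes called higher was 4.81% and 10.6%. The single assembly factor call was lost without control replicate 1 and without either KO replicate, and 3 assembly factors passed when control replicate 2 or, in turn, control replicate 3 was left out. In each of these 5 fits 39 of 40 subunit genes kept a positive log2 fold change, and their median lay between 0.44 and 0.52. In the fit on all 5 libraries 47.6% of all tested genes were positive, and 39 of the 40 subunit genes. Fewer were positive once trends on length were removed: 31 of the 40 with offsets for length plus GC, 27 with offsets for length only, and 27 where the former were combined with a replicate block.

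**Figure D1:**
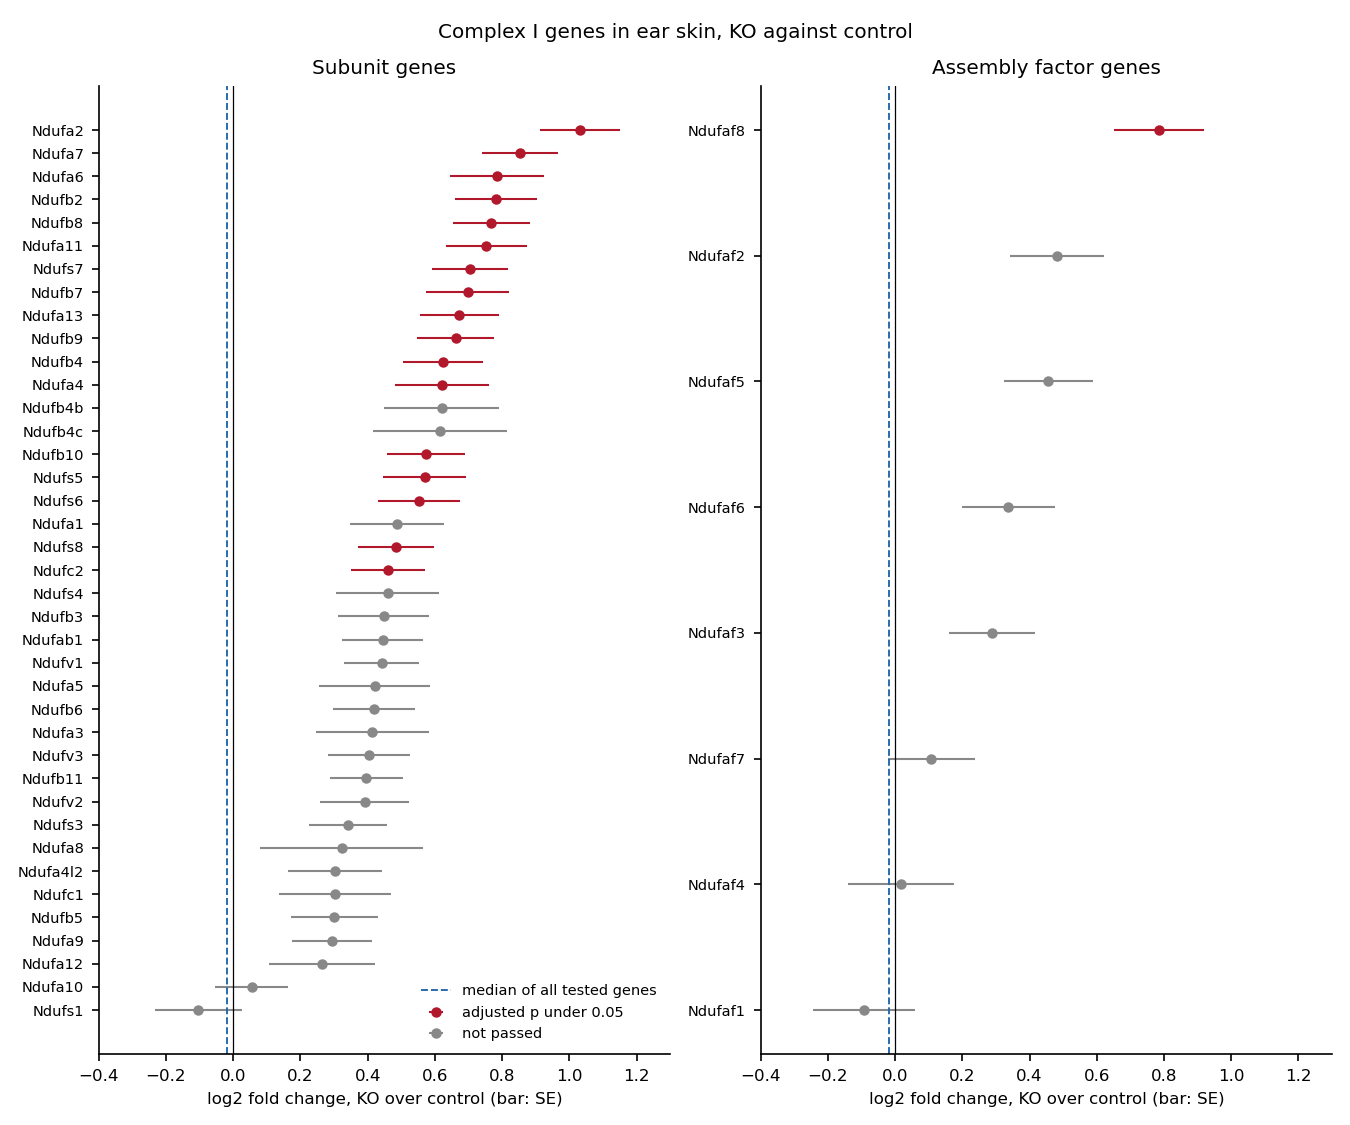
Log2 fold change of KO over control (horizontal axis) with its SE (bars) for 39 of the 40 subunit genes (left) and the 8 assembly factor genes (right). Red points passed an adjusted p of 0.05 (edgeR), grey points did not, and the dashed line marks the median of all tested genes (-0.018). All subunit genes shown but Ndufs1 lie right of 0.

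The 7 core subunits carry the flavin and iron-sulfur clusters and the quinone site. Of these, 2 rose, 0 fell and 5 did not pass, with a median log2 fold change of 0.39. Ndufs7 (chromosome 10, 80249105 to 80256794 on GRCm38), which holds the last iron-sulfur cluster before ubiquinone, had 143, 142 and 159 CPM in the controls and 239 and 243 CPM in KO. Both KO values stood above all controls, and the log2 fold change was 0.70 (SE 0.11, edgeR adjusted p = 0.0195). Ndufs8 (chromosome 19, 3908863 to 3912774), which carries iron-sulfur clusters further upstream, had 62.3, 57.8 and 60.03 CPM in the controls and 81.3 and 86.7 CPM in KO, again without overlap, and rose by 0.48 (SE 0.11, adjusted p = 0.0438). The other core genes did not pass. Ndufv1, which binds NADH and the flavin, had 162, 159.8 and 170.3 CPM in the controls and 229.6 and 216 CPM in KO (log2 fold change 0.44, adjusted p = 0.0559). Ndufv2, its iron-sulfur partner, had 0.39 (adjusted p = 0.119) and Ndufs3 0.34 (adjusted p = 0.121). In each of these 3 both KO libraries lay above all controls. Ndufs1, the largest subunit, stood apart with 69.7, 77.0 and 61.1 CPM in the controls and 63.5 and 65.6 CPM in KO. Its groups overlapped, its log2 fold change was -0.10 (SE 0.13, adjusted p = 0.686), and in this fit it was the only subunit gene of the 40 with a negative value.

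Among accessory subunits of the matrix arm was the gene with the largest change. Of 9 such genes 4 rose and 5 did not pass, with a median of 0.46. Ndufa2 (chromosome 18, 36742332 to 36744587), a small subunit at the NADH end of the arm, had 143, 152 and 137 CPM in the controls and 316 and 274 CPM in KO. The control mean was 144 ± 7.55 CPM (SD, n = 3) and the KO mean 295 ± 30.3 CPM (SD, n = 2). Its log2 fold change of 1.03 (SE 0.12, edgeR adjusted p = 0.0152) was the largest of the 48 genes without offsets. With length and GC offsets it was 0.52, below Ndufb2 (0.9994), Ndufb4b (0.62, not adjusted for length) and Ndufab1 (0.59). Ndufa7 (chromosome 17, 33824572 to 33838316), another accessory subunit of this arm, had 88.2, 96.0 and 93.1 CPM in the controls and 176 and 158 CPM in KO, so every KO value was above every control. Its log2 fold change was 0.85 (SE 0.11, adjusted p = 0.0157). Ndufa6, a member of the LYR-motif proteins that hold the mitochondrial acyl carrier protein, was low in level, with 9.69, 9.75 and 9.31 CPM in the controls and 15.0 and 18.1 CPM in KO, and rose by 0.79 (SE 0.14, adjusted p = 0.0227). Ndufs6, a zinc-binding subunit, rose by 0.55 (SE 0.12, adjusted p = 0.0388). It shares 96.6% identity over 348 bases with the pseudogene Ndufs6b, so the 2 could have exchanged reads. Ndufs4, whose loss destabilises the NADH end of the complex, had 72.4, 90.9 and 63.2 CPM in the controls and 108 and 100.2 CPM in KO and did not pass (log2 fold change 0.46, adjusted p = 0.112). Ndufa12 had 0.26 (adjusted p = 0.356), and its groups overlapped.

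In the membrane arm, 10 of 19 nuclear-encoded subunit genes rose, 0 fell and 9 did not pass, with a median of 0.49 (range 0.055 to 0.78). In the matrix arm the counts were 6 of 16 with a median of 0.43. Ndufb2 (chromosome 6, 39592565 to 39599843), an accessory subunit at the far end of the membrane arm, had 75.7, 88.4 and 78.4 CPM in the controls and 147 and 131 CPM in KO and rose by 0.78 (SE 0.12, adjusted p = 0.0186). Ndufb8 (chromosome 19, 44548571 to 44555442), whose protein is much used as a marker of assembled complex I, had 164, 179.8 and 188 CPM in the controls and 295 and 309 CPM in KO and rose by 0.77 (SE 0.12, adjusted p = 0.0186). Ndufa11 (chromosome 17, 56717762 to 56724248), which sits where complex I meets complex III in supercomplexes, had 84.3, 87.6 and 96.5 CPM in the controls and 161 and 141 CPM in KO and rose by 0.75 (SE 0.12, adjusted p = 0.0195). For these 3 genes no KO value overlapped a control value. The other membrane arm genes that rose were Ndufb7 (0.70), Ndufa13 (0.67), also known as Grim19, Ndufb9 (0.66), Ndufb4 (0.62), Ndufb10 (0.57), Ndufs5 (0.57) and Ndufc2 (0.46, adjusted p = 0.0495, the weakest call). At the other end, Ndufa10 had 85.1, 85.0 and 82.4 CPM in the controls and 87.5 and 87.5 CPM in KO (log2 fold change 0.055, adjusted p = 0.813). Both KO values lay just above the highest control. By name, 6 of 12 Ndufb genes rose (median 0.62), 6 of 15 Ndufa genes (0.44), 4 of 8 Ndufs genes (0.47), 1 of 2 Ndufc genes (0.38) and 0 of 3 Ndufv genes (0.40).

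**Figure D2:**
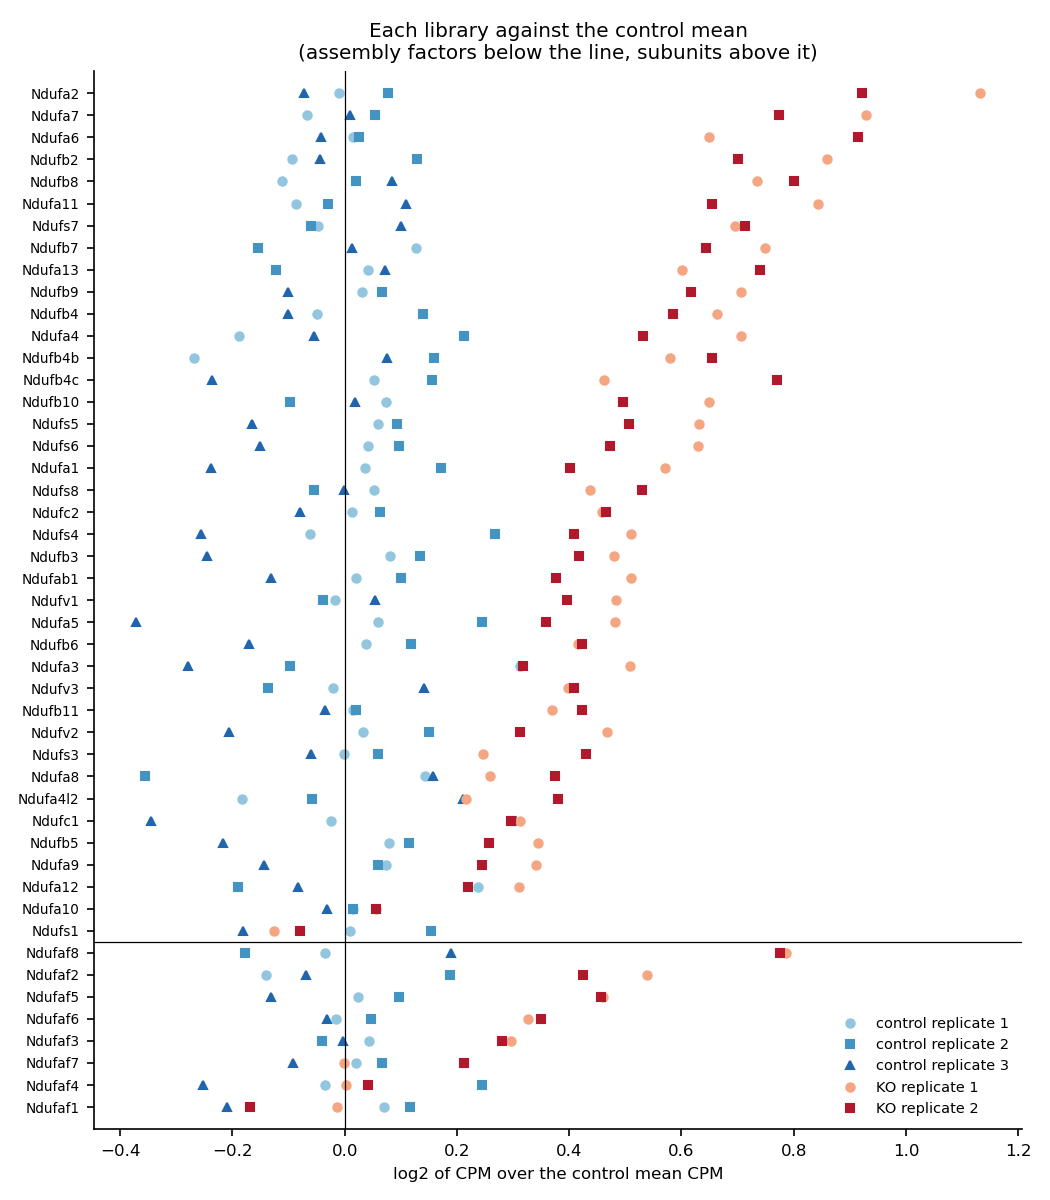
CPM of each library over the mean CPM of the controls, on a log2 scale (horizontal axis), for 39 of the 40 subunit genes (above the line) and the 8 assembly factor genes (below it). Blue symbols are the 3 controls and orange and red symbols the 2 KO libraries. The KO libraries lie right of all controls for every subunit gene shown but Ndufc1, Ndufa12 and Ndufs1, and for 5 of the 8 assembly factor genes.

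Several genes taken in by name are not ordinary parts of the complex. Ndufab1, the mitochondrial acyl carrier protein present in both arms, had 47.7, 50.5 and 43.0 CPM in the controls and 67.0 and 61.1 CPM in KO and did not pass (log2 fold change 0.44, adjusted p = 0.0706). Ndufa4, first named as a complex I subunit and now placed in cytochrome c oxidase, had the highest level per kilobase of all members with a known length (mean of 745 CPM per kb over the 5 libraries). Its values were 328, 434 and 360.3 CPM in the controls and 610.4 and 541 CPM in KO, and it rose by 0.62 (SE 0.14, edgeR adjusted p = 0.0396). Its paralogue Ndufa4l2, known to be induced by hypoxia, had 59.2, 64.5 and 77.8 CPM in the controls and 78.0 and 87.4 CPM in KO (log2 fold change 0.30, adjusted p = 0.238), so KO replicate 1 was barely above the highest control. Ndufb4b and Ndufb4c are relatives of Ndufb4 at low level, with 0.62 (adjusted p = 0.0717) and 0.62 (adjusted p = 0.106). RefSeq lists both as protein coding, whereas GENCODE calls Ndufb4c a processed pseudogene, and Ndufb4c matches Ndufb4 with 100% identity over 390 bases, so these values are uncertain. In all, 8 of 47 members with an annotated transcript match another gene annotated as a pseudogene with at least 95% identity over at least 200 bases (Ndufa12, Ndufab1, Ndufb3, Ndufb4, Ndufb11, Ndufs3, Ndufs5 and Ndufs6), and how the counting treated such reads is not given. Genes on the opposite strand overlap several that rose, among them Ndufa2 (Tmco6), Ndufb2 (Braf), Ndufa11 (Vmac), Ndufa13 (Tssk6) and Ndufs6 (Mrpl36), and, with the strand setting not given, their reads cannot be told apart.

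Levels differed widely among members. Per kilobase of the principal transcript, the subunit genes had a median of 118 CPM per kb (range 3.19 to 745, 39 genes), and the assembly factors a median of 11.3 (range 5.15 to 35.9, 8 genes). These are means over the 5 libraries. In the controls alone, the highest means after Ndufa4 were those of Ndufb8 (261 CPM per kb), Ndufa2 (252), Ndufs6 (230.4) and Ndufb9 (226). Over the 5 libraries Ndufa8 (3.19 CPM per kb), Ndufa12 (11.7) and Ndufa6 (21.0) were far below the other placed accessory subunits, except Ndufab1 (15.5) and Ndufb2 (23.8), whose annotated principal transcripts are long (3479 and 4371 bases). The products of these genes join the complex in fixed ratio. Ndufa8 and Ndufb9 were chosen for this comparison after their values were seen.

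Assembly factors act at different steps, and 1 of the 8 rose. Ndufaf8 (chromosome 11, 120098934 to 120100424), the partner of the hydroxylase Ndufaf5 that modifies Ndufs7, had 21.3, 19.3 and 24.8 CPM in the controls and 37.6 and 37.3 CPM in KO and rose by 0.78 (SE 0.13, edgeR adjusted p = 0.0207), the only one of the 8 to pass. Ndufaf5 itself had 13.9, 14.6 and 12.4 CPM in the controls and 18.7 and 18.7 CPM in KO (log2 fold change 0.46, SE 0.13, adjusted p = 0.0818). Ndufaf2, a late factor related to Ndufa12, had 16.7, 21.0 and 17.5 CPM in the controls and 26.7 and 24.7 CPM in KO (log2 fold change 0.48, adjusted p = 0.0806). In these 2 genes the groups did not overlap, but neither passed. Ndufaf6, needed early for the membrane arm, had 0.34 (adjusted p = 0.186). Ndufaf3 and Ndufaf4 work together on the quinone module and had 0.29 (adjusted p = 0.221) for Ndufaf3 and 0.018 (adjusted p = 0.965) for Ndufaf4, whose controls spanned both KO libraries (18.1, 22.0 and 15.6 CPM in the controls and 18.6 and 19.1 CPM in KO). Ndufaf7, an arginine methyltransferase, had 0.11 (adjusted p = 0.674), and Ndufaf1, a factor of the membrane arm intermediate, -0.092 (SE 0.15, adjusted p = 0.771) with 12.2, 12.6 and 10.1 CPM in the controls and 11.5 and 10.4 CPM in KO.

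Other genes of the pathway were taken from lists of known complex I genes. Of 11 tested complex I assembly genes with other names (Acad9, Ecsit, Tmem126b, Timmdc1 and others; Coa1 was not analysed here), 1 rose and 10 did not pass, with a median of 0.13. The one that rose was Dmac1, a factor of the distal membrane arm, with 29.8, 32.8 and 33.4 CPM in the controls and 46.1 and 45.2 CPM in KO (log2 fold change 0.51, SE 0.12, edgeR adjusted p = 0.0402). Of the 7 subunits encoded by mitochondrial DNA (ND1 to ND6 and ND4L), 0 rose, 0 fell and 7 did not pass. An unadjusted p under 0.05 was found for 0 of the 7, against 21.9% of all genes (edgeR). DESeq2 called 0 of the 7 higher and limma voom 1, where they called 6.31% and 14.9% of all genes higher. Their log2 fold changes ran from -0.31 to 0.40 with a median of -0.0047, and the groups overlapped in all 7. With offsets for transcript length and GC content, described with the length results, the median was -0.27 and 0 passed. In that fit 5 of 7 had an unadjusted p under 0.05, against 18.6% of all genes (edgeR). Their summed level was 7322, 9352 and 5896 CPM in the controls and 7819.7 and 6324 CPM in KO, while that of the 40 nuclear-encoded subunit genes was 4005, 4218 and 3881 CPM in the controls and 5981 and 5741 CPM in KO. The mitochondrially encoded genes thus spread as widely within the controls as between the groups, and the nuclear-encoded genes did not; the difference between both lists was not tested.

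Nuclear genes of the other respiratory complexes that could be tested are given for comparison. Sdhd of complex II, Uqcr11 of complex III and Cox7a2 of complex IV had too few counts to be tested. Their counts per library were 0 to 5 for Sdhd, 0 for Uqcr11 and 3 to 14 for Cox7a2. In complex II 1 of 3 rose (Sdhb, 0.52; median 0.21). In complex III 3 of 8 rose (Uqcrq 0.87, Uqcrh 0.71 and Uqcr10 0.66; median 0.36). In complex IV, cytochrome c oxidase, 10 of 12 rose (median 0.60), and those with the smallest p were Cox7a1 (0.84), Cox4i1 (0.61), Cox8b (0.88) and Cox8a (0.60). In complex V, ATP synthase, 6 of 15 rose (median 0.50), with the smallest p for Atp5j2 (0.80), Atp5e (0.90), Atp5l (0.83) and Atp5k (0.70). In these 4 lists 0 genes fell. With the same offsets 0, 1, 1 and 3 genes of complexes II, III, IV and V passed as higher, and the medians were 0.18, 0.089, 0.16 and 0.13. Of 8 regulators of mitochondrial biogenesis (Ppargc1a, Ppargc1b, Nrf1, Gabpa, Esrra, Yy1, Tfam and Tfb2m), 0 rose and 0 fell (edgeR), and their median was -0.023, or 0.16 with offsets. An unadjusted p under 0.05 was found for 2 of the 8, against 21.9% of all genes (edgeR without offsets). DESeq2 and limma voom each called 1 of the 8 higher and 1 lower. Of all 17472 genes, DESeq2 called 1102 higher and 732 lower, and limma voom 2605 higher and 2057 lower. Whether complex I differs from these lists was not tested.

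**Figure D3:**
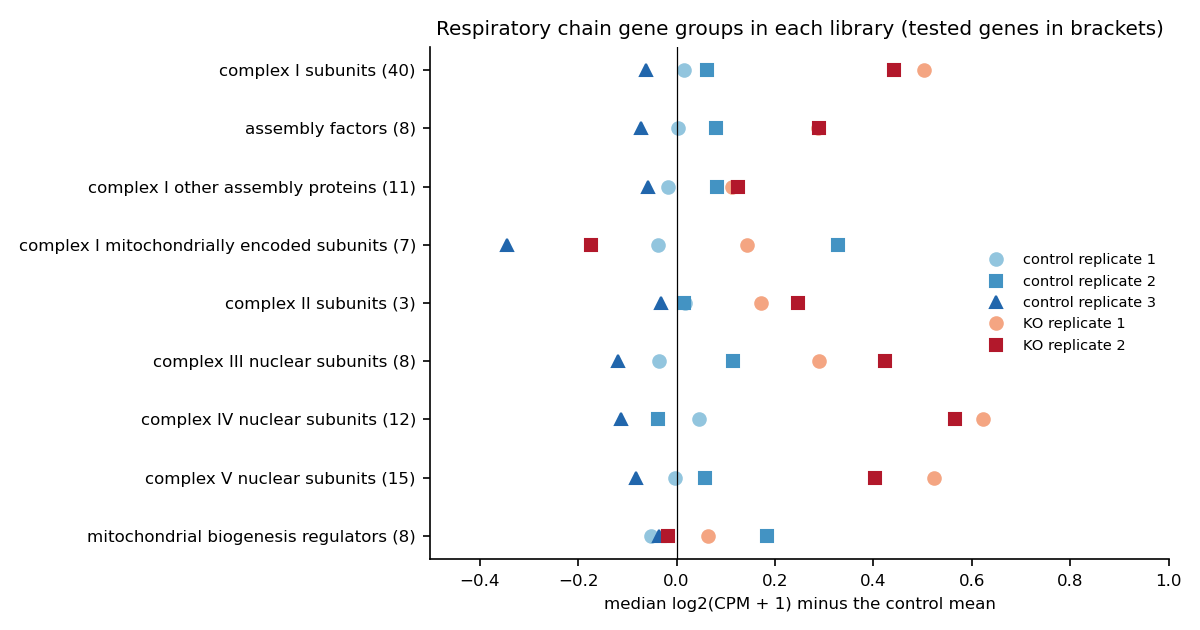
Median deviation from the control mean, in log2(CPM + 1), for each library (horizontal axis) and each gene group of the respiratory chain (rows, with the number of tested genes). Both KO libraries lie right of the 3 controls for complex I subunits and for nuclear genes of complexes II, III, IV and V, whereas for the mitochondrially encoded subunits the KO libraries (0.14 and -0.17) lie within the controls (-0.34 to 0.33).

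The promoters of members, whether or not they passed, were searched for a motif known from respiratory chain genes, the binding motif of nuclear respiratory factor 1. The letters GCGCA and GCGC, separated by any single base and on either strand, were looked for in the 250 bases before each start site in the RefSeq promoter table (GRCm38.p6). The table held windows for 34 of the 40 subunit genes and 7 of the 8 assembly factors. A match was found in 7 of 36 subunit windows (19.4%) and in 3.74% of all 32851 windows. By call, it was 4 of 16 windows of subunit genes that rose and 3 of 20 of those that did not pass. The 7 and the 3 count the same site of Ndufa5 in overlapping windows, 190 and 26 bases before their starts, so they exceed the number of genes. The letters CCGGAAG, a core of ETS family sites, were found in 3 of 36 subunit windows (8.33%) against 6.91% of all windows, and AAGATGGCG, a YY1 motif, in 0 of 36 against 0.606%. Of 7 assembly factor windows, 1 held the first motif (14.3%), 2 held CCGGAAG (28.6%) and 0 held the YY1 motif. Those with CCGGAAG were Ndufaf8, which rose, and Ndufaf1, which did not pass (log2 fold change -0.092). A match is a description of letters and does not show that a factor binds. Below, the last 120 bases before the start site are given 5′ to 3′ with matches in capitals, for 4 subunit genes that rose and hold the first motif, for Ndufaf8, the assembly factor that rose, which holds CCGGAAG, and for Ndufaf4, which holds the first motif and did not pass.
Ndufb4: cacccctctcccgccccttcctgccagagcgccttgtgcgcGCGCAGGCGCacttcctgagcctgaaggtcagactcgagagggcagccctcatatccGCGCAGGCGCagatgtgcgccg
Ndufa11: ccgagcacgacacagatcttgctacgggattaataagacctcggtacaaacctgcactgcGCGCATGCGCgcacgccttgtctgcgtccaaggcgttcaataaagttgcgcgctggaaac
Ndufs5: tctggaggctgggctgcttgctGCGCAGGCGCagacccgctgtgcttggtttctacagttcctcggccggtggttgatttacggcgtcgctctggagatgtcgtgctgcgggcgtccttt
Ndufs6: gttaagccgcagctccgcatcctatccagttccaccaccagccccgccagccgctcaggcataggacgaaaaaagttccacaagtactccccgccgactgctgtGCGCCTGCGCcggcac
Ndufaf8: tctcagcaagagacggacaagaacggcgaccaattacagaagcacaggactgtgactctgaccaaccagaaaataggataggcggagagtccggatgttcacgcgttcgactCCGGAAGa
Ndufaf4: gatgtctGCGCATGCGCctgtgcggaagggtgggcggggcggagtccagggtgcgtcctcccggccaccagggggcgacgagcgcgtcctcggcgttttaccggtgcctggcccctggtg
These windows lie at chr16:37654369-37654488 (minus strand), chr17:56717642-56717761 (plus strand), chr4:123718187-123718306 (minus strand), chr13:73328483-73328602 (minus strand), chr11:120098814-120098933 (plus strand) and chr4:24897963-24898082 (plus strand), in that order. In Ndufb4 the motif began 79 and 22 bases before the start, with a further match 191 bases before it, outside the stretch shown. It began 60 bases before the start in Ndufa11, 98 in Ndufs5, 16 in Ndufs6 and 113 in Ndufaf4, and CCGGAAG began 8 bases before it in Ndufaf8. Beside these sequences stand log2 fold changes of 0.62, 0.75, 0.57, 0.55, 0.78 and 0.018, so genes with the motif both rose and did not pass.

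Transcript length moved with these results. Over all tested genes, shorter transcripts had higher values in KO: Spearman's rho between log2 fold change and the length of the principal transcript was -0.54 over 16772 genes, which share the same 5 libraries. By library, rho with each gene's difference from its own 5-library mean was -0.48 and -0.48 in KO and 0.46, 0.32 and 0.24 in the controls, so the length trend separated the groups. Complex I transcripts are short. Their median was 908 bases for subunits and 1308.5 for assembly factors, against 2816 for all tested genes, and rho among 39 subunit genes was -0.51. The subunit genes that rose had a median length of 680 bases and those that did not pass 1094.5 bases.

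Within classes of similar length, most subunit genes still lay above the median of the class. Below 500 bases 0 of 2 subunit genes rose, against 11.1% of all 360 tested genes. Of transcripts from 500 to below 750 bases, 12 of 14 subunit genes rose against 113 of all 494 tested genes (22.9%), and the medians were 0.64 and 0.48. From 750 to below 1000 bases 2 of 7 subunit genes rose, against 17.7% of all genes, with medians of 0.42 and 0.37. From 1000 to below 1500 bases it was 2 of 7 against 7.12%, with medians of 0.30 and 0.26. From 1500 to below 2000 bases 0 of 5 rose against 1.35%, with medians of 0.40 and 0.15. From 2000 bases up 1 of 4 subunit genes rose (Ndufb2), against 0.408% of all genes. Ndufb2 falls there by its principal transcript of 4371 bases, while a protein-coding transcript of 455 bases is also annotated. From 2000 to below 4000 bases the medians were 0.055 for 3 subunit genes and -0.020 for all genes, and from 4000 to below 8000 bases the median of all genes was -0.20. Over all classes 33 of 39 subunit genes lay above the median of their class, by a median of 0.15, and 6 of 8 assembly factors, by 0.031.

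**Figure D4:**
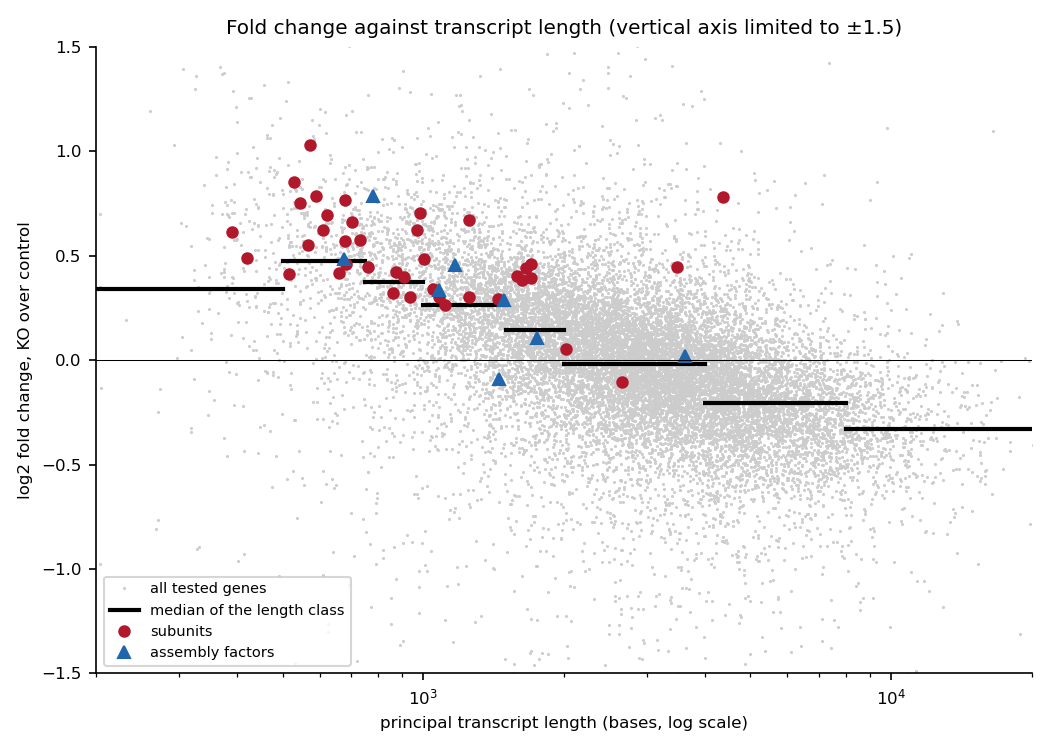
Log2 fold change of KO over control (vertical axis, limited to 1.5 either way) against principal transcript length in bases (log scale) for all tested genes (grey), 39 subunit genes (red) and 8 assembly factor genes (blue). Black lines are medians of all tested genes in each length class. The class median falls from 0.48 at 500 to 750 bases to -0.33 at 8000 bases and above, and 33 of the 39 subunit genes lie above the median of their class.

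When each library's trend on length and GC content was removed with offsets, the rise shrank. The median of the subunit genes was then 0.14 and that of the assembly factors 0.062, against -0.0025 for all tested genes. Of the 40 subunit genes 5 passed as higher and 0 as lower, where 1.92% of all tested genes were higher and 0.801% lower, and of the assembly factors 0 passed (edgeR). Those that passed were Ndufb2 (0.9994, adjusted p = 0.000374), Ndufab1 (0.59, adjusted p = 0.00313), Ndufa2 (0.52, adjusted p = 0.00477), Ndufs4 (0.42, adjusted p = 0.0148) and Ndufv2 (0.35, adjusted p = 0.0299). Without KO replicate 1 the count was 1 (0.244% of all genes higher), and without control replicate 1 it was 3 (0.638%). Of the 5, Ndufa2 and Ndufb2 were among the 17 that rose without offsets. Ndufaf8 had 0.30 (adjusted p = 0.114), and Ndufs6 went from 0.55 to -0.016. With length offsets alone 0 subunit genes passed, as did 0% of all genes as higher (edgeR), and the subunit median was 0.11. At an unadjusted p under 0.05, 9 subunit genes were higher in that fit, against 11.6% of all genes in either direction. Ndufb4b had no annotated length, so no trend was removed from it.

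The outcome depended on which transcript stood for a gene. The principal transcripts of Ndufb2 and Ndufab1 are long models, and shorter protein-coding ones are annotated. The protein-coding transcript of middle length has 455 bases in Ndufb2 and 552 in Ndufab1. Ndufs4 and Ndufv2 also passed with length and GC offsets. Their middle protein-coding transcripts have 873 and 699 bases, against 1698 and 1697 for their principal transcripts. With offsets on the middle protein-coding transcript Ndufb2 had 0.60 (adjusted p = 0.00817) and Ndufab1 0.41 (adjusted p = 0.0164), and 21 subunit genes and 3 assembly factors passed, with a subunit median of 0.39, where 4.73% of all genes were higher. Length by that model followed the fold change less closely over all genes (rho of -0.35). With the longest transcript 7 subunit genes passed and 2.41% of all genes were higher. Under these 3 models Ndufa2 had 0.52, 0.91 and 0.48 with principal, middle and longest transcripts (edgeR adjusted p = 0.00477, 0.00197 and 0.0114). Its own length was 572 bases in each model, so only the trend fitted over all genes differed for it. With length offsets alone it had 0.51 and did not pass (edgeR adjusted p = 0.137).

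**Figure D5:**
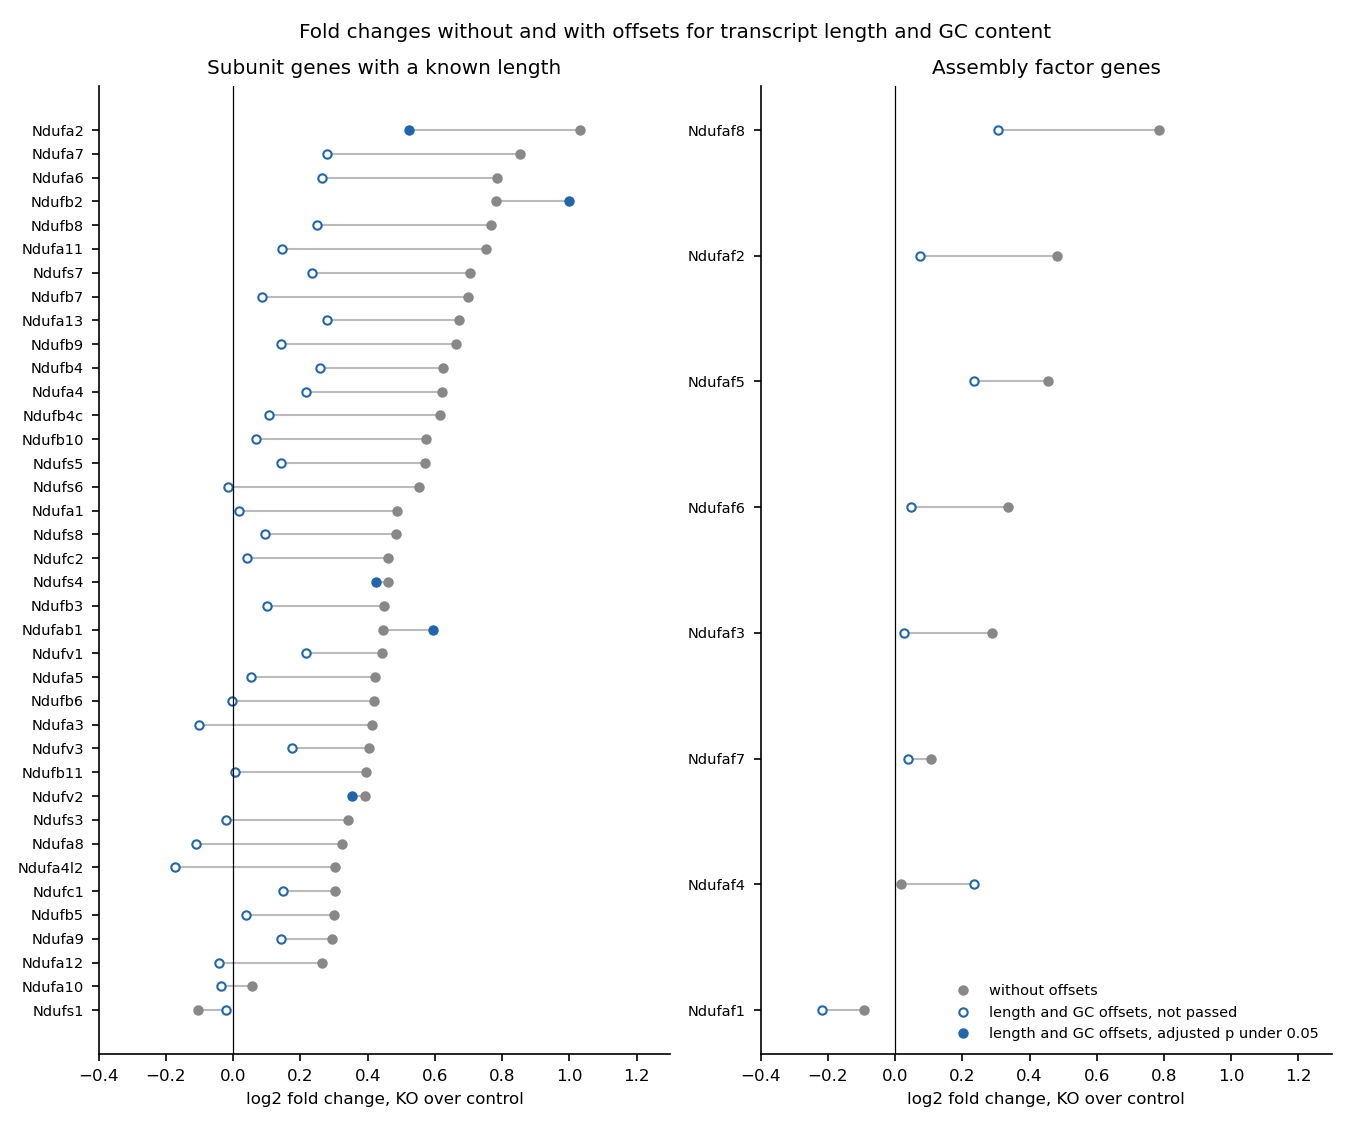
Log2 fold change of KO over control (horizontal axis) without offsets (grey) and with per-library offsets for principal transcript length and GC content (blue, filled where the adjusted p was under 0.05) for subunit genes with a known length (left) and 8 assembly factor genes (right). Most values move toward 0 with the offsets, while Ndufb2 rises from 0.78 to 0.9994 and Ndufaf4 from 0.018 to 0.24.

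Some markers of muscle, a tissue rich in mitochondria, moved with the same groups, and their part in the complex I result was not tested beyond the values that follow. Of 12 fast-twitch muscle markers 4 rose (Pvalb 0.94, Tnnc2 0.71, Tnni2 0.69 and Mylpf 0.60), with a median of 0.43 and a summed level of 6163 to 6607 CPM in the controls and 8033 and 8926 CPM in KO. The other 8 did not pass, among them the myosins Myh1 (-0.086), Myh2 (0.21) and Myh4 (0.089), and Atp2a1 (0.12). For Myh1 and Myh2 the groups overlapped. With the offsets for length plus GC their median was 0.20, 2 of the 12 passed as higher, and Tnnc2 (0.21, adjusted p = 0.289), Tnni2 (0.19, adjusted p = 0.256) and Mylpf (0.16, adjusted p = 0.509) did not. Of 8 slow-twitch and cardiac markers 3 rose (Myl2 1.31, Myl3 1.29 and Tnnt1 0.62), with a summed level of 299.7 to 334 CPM in the controls and 337 and 373 CPM in KO. Atp2a2, which made up most of that level, was at 214 CPM in the controls and 185 CPM in KO on average, without overlap (log2 fold change -0.21, adjusted p = 0.298), and Myh6 had -1.40 (adjusted p = 0.312). Both were picked after their values were seen. With offsets 2 of the 8 passed, and Tnnt1 did not (0.25, adjusted p = 0.228). Of 4 brown adipocyte markers 0 passed (edgeR, 0 with an unadjusted p under 0.05, against 21.9% of all genes). Limma voom called 1 of the 4 higher, against 14.9% of all genes. Their summed level was 139 to 178 CPM in the controls and 174 and 178 CPM in KO. Of 6 adipocyte markers 1 rose (Cfd, 0.71), with a summed level of 611 to 991 CPM in the controls and 1029 and 1185 CPM in KO. With offsets Cfd had 0.21 (edgeR adjusted p = 0.734). Growing hair follicle markers were high in 1 library, KO replicate 1 (708 CPM summed, against 46.3 CPM in KO replicate 2 and 36.9 to 55.5 CPM in the controls). Of these 13 hair markers 0 passed (edgeR, 2 with an unadjusted p under 0.05, against 21.9% of all genes). DESeq2 called 4 of the 13 higher, against 6.31% of all genes. The complex I subunit median deviated by 0.44 in KO replicate 2 and by 0.50 in KO replicate 1, and the part of hair follicle content in it was not tested. With the summed fast-twitch level as a covariate 0 subunit genes passed (edgeR), where 0.0343% of all genes were higher (6 genes), and the subunit median was 0.78. At an unadjusted p under 0.05, 15 subunit genes were higher in that fit, against 9.52% of all genes in either direction. Both KO libraries exceed all controls in that covariate, so muscle content and genotype cannot be told apart here.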

How the data were processed

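Ear skin RNA libraries (3 controls, 2 KO) were grouped by their titles. The authors deposited one table of raw counts (whole numbers, Entrez gene rows); per the submitters' processing notes the tools included FastQC, HISAT2 2.0.4 and DESeq2 1.16.1 with the build GRCm38 (mm10). How reads were counted (program, strand setting, shared reads) was not stated in the labels or headers used here.

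From these counts, edgeR 4.0.16 (R 4.3.3) tested KO against control: filterByExpr left 17472 genes, TMM scaled the libraries, and a robust quasi-likelihood F test was adjusted by Benjamini-Hochberg at 0.05. Symbols came from RefSeq (25275 of 27179 rows matched) and transcript length and GC content from GENCODE's principal transcripts (16772 tested genes). Offsets were smooth trends fitted per library with mgcv. Alternatives were other scalings, filters, tools (DESeq2 1.42.0, limma 3.58.1), offsets, a muscle covariate, a replicate block and leaving out each library; without a KO library, the remaining one is assumed to vary like the controls.

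The members and lists were chosen with earlier results of these data known. Named are Cd1d1, every subunit that passed, all assembly factors, the core subunits (1 of which is not reported here by itself), the 3 lowest subunits, Ndufa4 and Ndufa4l2, and up to 4 passing members of each other list; Ndufs4, Ndufab1, Ndufb4b and Ndufb4c were added after their values were seen. Libraries of a group differed by more than sampling noise (chi-square per degree of freedom of 24 to 80.7). A single read was worth 0.0119 to 0.0303 CPM.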

Additional observations from a re-analysis of the deposited data

How the results depend on the processing

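In the main analysis 17 subunit genes, 1 assembly factor and 657 genes in all passed, with medians of 0.46 and 0.31. No subunit or assembly factor passed as lower under any alternative. The subunit median was positive in every fit. Counts of subunits, assembly factors and all genes were 11, 1 and 1242 with library size alone, 28, 3 and 1834 with DESeq2, 33, 4 and 4662 with limma voom, 0, 0 and 9 with the muscle covariate, 5, 0 and 475 with offsets for length plus GC, 0, 0 and 2 with offsets for length only, 2, 0 and 151 with length and GC offsets and the replicate block, and 1036 genes in all without a count filter. Alternatives chosen after seeing the data gave 7, 0 and 539 with the longest transcript in the offsets, 21, 3 and 1446 with the middle protein-coding transcript, 1, 0 and 48 with offsets and without KO replicate 1, and 3, 0 and 132 with offsets and without control replicate 1. Leaving out 1 library gave 0 to 28 subunit genes, 0 to 3 assembly factors and 0 to 3277 genes in all. The cause of these shifts was not tested.

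Medians of subunits and assembly factors were 0.31 and 0.16 with library size alone, which moved the median of all genes from -0.018 to -0.16, 0.14 and 0.062 with offsets for length plus GC, 0.11 and 0.039 with offsets for length only, 0.083 and 0.084 with offsets and the replicate block, 0.78 and 0.46 with the muscle covariate, 0.11 and 0.16 with the longest and 0.39 and 0.19 with the middle transcript, 0.15 and 0.13 with offsets and without KO replicate 1, and 0.14 and 0.058 with offsets and without control replicate 1.

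The deviations of same-numbered control and KO libraries had r of -0.0011 and -0.13. With the other KO library the same controls had 0.0011 and 0.13, the same sizes with opposite sign. The deviations of the KO libraries thus mirror each other, so these values cannot decide whether the numbers pair the samples. With the replicate block 22 subunit genes, 1 assembly factor and 2037 genes in all passed, with medians of 0.45 and 0.30, and Ndufaf4 had -0.083.

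Of the genes named by rule, these log2 fold changes changed sign. With length and GC offsets they were -0.016 for Ndufs6, -0.021 for Ndufs3, -0.037 for Ndufa10, -0.042 for Ndufa12, -0.17 for Ndufa4l2 and -0.015 for Cox8a. Among other subunit genes, values below 0 were -0.0036 for Ndufb6, -0.10 for Ndufa3 and -0.11 for Ndufa8. With length offsets they were -0.0069 for Ndufaf2, -0.039 for Ndufaf7, -0.024 for Ndufc2, -0.0072 for Ndufs3, -0.038 for Ndufa10, -0.065 for Ndufa12 and -0.085 for Ndufa4l2, and among other subunit genes -0.060 for Ndufa1, -0.010 for Ndufb3, -0.074 for Ndufb6, -0.12 for Ndufa3, -0.0041 for Ndufb11, -0.096 for Ndufa8 and -0.039 for Ndufb5. With offsets and the replicate block they were -0.032 for Ndufaf3, -0.12 for Ndufs6, -0.077 for Ndufs3, -0.069 for Ndufa10, -0.060 for Ndufa12, -0.16 for Ndufa4l2, -0.027 for Uqcr10 and -0.069 for Cox8a. On the longest transcript the values were -0.0041 for Ndufaf3, -0.0078 for Ndufc2, -0.059 for Ndufs3, -0.083 for Ndufa10, -0.20 for Ndufa4l2 and -0.036 for Cox8a, and on the middle one -0.20 for Ndufa10. With offsets they were -0.030 for Ndufs6, 0.013 for Ndufs1, -0.042 for Ndufa10, -0.062 for Ndufa12 and -0.084 for Ndufa4l2 without KO replicate 1, and -0.015 for Ndufs3, -0.022 for Ndufa10 and -0.23 for Ndufa4l2 without control replicate 1. The muscle covariate gave -0.092 for Ndufaf7, 0.64 for Ndufaf1, 0.23 for Ndufs1, -0.45 for Ndufa4l2 and -0.065 for Mylpf. Library size alone gave -0.040 for Ndufaf7, -0.13 for Ndufaf4 and -0.092 for Ndufa10. Leaving out 1 library gave -0.0036 to 0.21 for Ndufaf7 and -0.090 to 0.16 for Ndufaf4. Depth allowed every member to be tested, the fewest counts in a library being 92 (Ndufa8), and with 3 against 2 libraries their number limits the precision.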
